A study of Mus musculus with 8 samples.

Results

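The genes described here belong to mitochondrial fusion, fission and quality control: *Mfn1*, *Mfn2*, *Opa1*, *Oma1*, *Dnm1l*, *Fis1*, *Mff*, *Mief1* and *Pink1*. They are 9 of 10 genes selected by gene symbol for their known roles, and each was found on 1 of the 22206 probe sets of the array, a probe set being a group of short probes that together measure 1 gene. RNA came from the gastrocnemius (GAS) of male C57/Bl6j mice aged 22 weeks. At about 10 weeks of age, the GAS had received an adeno-associated virus (AAV) of serotype 1. It encoded AAV sh-RNA MYTHO, a short hairpin that targets the *Mytho* transcript (MYTHO-KD, 4 arrays), or AAV sh-RNA scrmb, a scramble hairpin, in the opposite leg (scramble, 4 arrays). Both hairpins were driven by the U6 promoter, which is not specific to muscle fibers, and both groups therefore carried a virus and a hairpin. Clariom S Mouse arrays were used, and all values are log2 signals, or differences of log2 signals, of whole muscle. In whole muscle, fewer cells of a type and less RNA per cell cannot be told apart.

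Mitochondria continually join and divide. The mitofusins MFN1 and MFN2 join the outer membranes and OPA1 joins the inner membranes, whereas the GTPase DRP1, recruited by adaptor proteins of the outer membrane, constricts and divides the organelle. On damaged mitochondria the kinase PINK1 accumulates and phosphorylates ubiquitin, which marks them for mitophagy, their removal by autophagy. In skeletal muscle, whose mitochondria form a network between the myofibrils, these processes are known to be needed for normal muscle mass and fiber integrity.

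The deposited table gave an average and a standard deviation (SD) per group, so the values of single arrays were not analysed here, and whether the arrays of both groups overlapped could not be read for any gene. The target of the sh-RNA, listed as *D230025D16Rik*, fell by 2.31 on the log2 scale (adjusted p = 0.0138, limma). Skeletal muscle fiber markers were present, and *Acta1* and *Myh4* stood at the top of the scale in both groups, at 19.93 with an SD of 0. Over all probe sets the median SD was 0.27 in either group, and the median difference was -0.01 (log2).

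After 12 weeks of MYTHO-KD, none of the 9 genes differed 2-fold or more from scramble, and none passed an adjusted p of 0.05 in limma's moderated test. *Pink1* and *Opa1* were higher at an unadjusted p under 0.05, and the 7 others were not past it in either direction. The count of 2 was 1 with unequal variances and 0 with population SDs. These 2 of 9 stand beside 12% of all probe sets past the same unadjusted threshold (6.48% higher and 5.52% lower), and a count so near the background is no result about these 9 genes. At 2-fold with this threshold, 1.12% of all probe sets were called, and at an adjusted p under 0.05, 0.275%. The averages of 7 genes were higher in MYTHO-KD and those of 2 were lower, with a median difference of 0.21 (log2), against -0.01 and 46.9% higher over all probe sets. The 95% interval of the difference lay within 2-fold in both directions for all 9 genes, between -0.42 and 0.97 (log2) at the extremes. Intervals and p-values rest on the 4 arrays of each group, and the labels do not say whether same-numbered arrays came from 1 mouse.

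**Figure D1:**
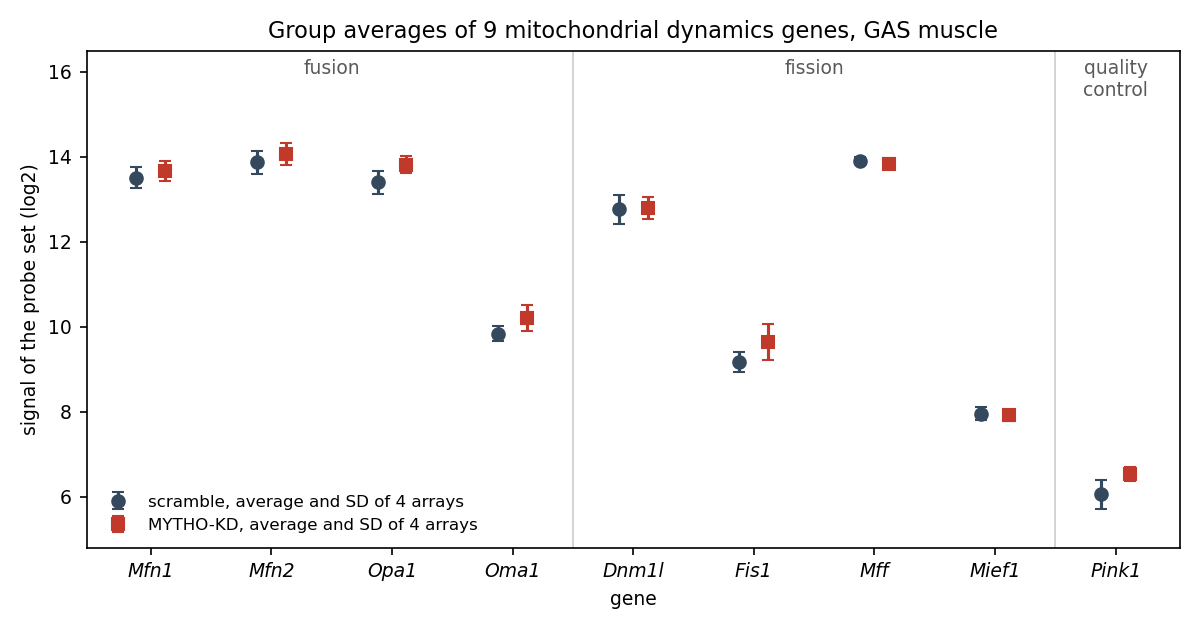
Group averages of the log2 signal of the 9 genes in GAS muscle, ordered by role, with circles for scramble, squares for MYTHO-KD, and bars for the SD among 4 arrays. Groups are to be compared within a gene only; the averages of *Opa1*, *Oma1*, *Fis1* and *Pink1* lie above those of scramble by 0.37 to 0.48, and those of *Dnm1l*, *Mff* and *Mief1* lie almost on them.

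The genes of fusion were described first. *Opa1*, the GTPase that fuses inner membranes and shapes the cristae, lies on chromosome 16 from 29579334 to 29654884 (mm10). Its average was 13.40 in scramble, with an SD of 0.26, and 13.82 in MYTHO-KD, with an SD of 0.20. The averages were thus further apart than either SD. The difference was 0.42 (log2, standard error 0.183, 95% interval 0.02 to 0.82), which is 33.8% more signal, with an unadjusted p of 0.0409 and an adjusted p of 0.391 in limma. With the deposited SDs taken as population SDs the unadjusted p was 0.0706. *Oma1*, a protease of the inner membrane that cleaves OPA1 under stress, lies on chromosome 4 from 103313812 to 103371868. It had an average of 9.84 in scramble (SD 0.17) and 10.21 in MYTHO-KD (SD 0.30). Its difference of 0.37 (95% interval -0.04 to 0.78) had an unadjusted p of 0.0715 and an adjusted p of 0.462 in limma.

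The mitofusins differed less. *Mfn1*, on chromosome 3 from 32529465 to 32579668, had an average of 13.51 in scramble (SD 0.25) and 13.67 in MYTHO-KD (SD 0.24). *Mfn2*, which besides fusion tethers mitochondria to the endoplasmic reticulum, lies on chromosome 4 from 147873586 to 147904909, with 13.87 in scramble (SD 0.27) and 14.08 in MYTHO-KD (SD 0.26). In both genes the difference was smaller than the SD of either group. It was 0.16 for *Mfn1* (95% interval -0.25 to 0.57, adjusted p = 0.807, limma) and 0.21 for *Mfn2* (95% interval -0.21 to 0.63, adjusted p = 0.738, limma). The direction was that of *Opa1*, but the difference between *Opa1* and the mitofusins was not tested, since that needs single arrays.

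The region before the start of *Opa1* is shown because it held 1 of the 5 motifs searched in the promoters of the group. RefSeq windows of 250 bases before a start (GRCm38.p6) were found for all 9 genes, 14 windows in all. Searched on both strands were GTAAACA for FoxO factors, CACGTG for TFEB, the palindrome made of GCGCA and its reverse complement for NRF1, AAGGTCA for estrogen-related receptors and CCGGAAG for GABPA, and none of these motifs holds another. No window of the group held the exact letters searched for FoxO, TFEB or estrogen-related receptors, which 3.17%, 6.02% and 4.08% of all 32851 windows held. Variants of these letters, which the same factors can also bind, were not searched. The NRF1 motif, found in 0.782% of all windows, was present before *Opa1*, beginning 59 bases before the start. The GABPA motif, found in 6.91% of all windows, was present before *Mfn1*, *Fis1* and *Mief1*, but another window of *Fis1* lacked it. These shares are per window, and some of the 9 genes have several windows. The 14 windows held 46.0% to 70.8% G and C, against a median of 52.4% over all windows. The shares were not adjusted for this. A match is a description of the letters only. The window of *Opa1* lies on the plus strand at chr16:29579084-29579333, and that of *Fis1*, with its motif 18 bases before the start, on the plus strand at chr5:136953025-136953274; capitals mark the motifs.
*Opa1*: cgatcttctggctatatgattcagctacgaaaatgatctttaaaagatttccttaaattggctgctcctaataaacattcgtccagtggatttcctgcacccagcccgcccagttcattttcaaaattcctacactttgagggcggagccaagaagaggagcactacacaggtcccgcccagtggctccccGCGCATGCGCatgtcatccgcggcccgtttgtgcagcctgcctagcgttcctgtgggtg
*Fis1*: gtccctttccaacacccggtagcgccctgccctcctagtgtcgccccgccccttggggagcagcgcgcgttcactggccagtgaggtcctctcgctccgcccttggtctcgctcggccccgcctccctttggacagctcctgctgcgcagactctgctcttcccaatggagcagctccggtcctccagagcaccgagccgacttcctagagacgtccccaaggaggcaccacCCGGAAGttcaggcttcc

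Among the genes of fission, the 1 that divides the organelle did not differ detectably. *Dnm1l*, which encodes DRP1, lies on chromosome 16 from 16312228 to 16359031 and had an average of 12.77 in scramble (SD 0.34) and 12.80 in MYTHO-KD (SD 0.26). Its difference was 0.03 (95% interval -0.42 to 0.48, adjusted p = 0.979, limma). None of the 3 adaptors of DRP1 passed the unadjusted threshold. *Fis1*, on chromosome 5 from 136953275 to 136966234, had an average of 9.17 in scramble (SD 0.24) and 9.65 in MYTHO-KD (SD 0.43). Its difference of 0.48 was as large as that of *Pink1*, but with a wider spread among the MYTHO-KD arrays (standard error 0.225, 95% interval -0.01 to 0.97), and it fell short of the threshold, with an unadjusted p of 0.0545 and an adjusted p of 0.428 in limma.

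*Mff* encodes the main DRP1 receptor of the outer membrane in many cells. Its SD was the smallest of the group in scramble, and in MYTHO-KD it shared the smallest SD with *Mief1*. *Mff* lies on chromosome 1 from 82724890 to 82752394, with an average of 13.91 in scramble (SD 0.08) and 13.84 in MYTHO-KD (SD 0.13). *Mief1*, which encodes the adaptor MID51, lies on chromosome 15 from 80234080 to 80253371 and had 7.96 in scramble (SD 0.15) and 7.92 in MYTHO-KD (SD 0.13). Both were slightly lower in MYTHO-KD by the averages, within their SDs. The differences were -0.07 for *Mff* (95% interval -0.40 to 0.26, adjusted p = 0.912, limma) and -0.04 for *Mief1* (95% interval -0.38 to 0.30, adjusted p = 0.960, limma).

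*Pink1*, the kinase of quality control, was higher in MYTHO-KD at the unadjusted threshold, but not with unequal variances. It lies on the minus strand of chromosome 4 from 138313409 to 138326307. Its average was 6.06 in scramble, with an SD of 0.34, and 6.54 in MYTHO-KD, with an SD of 0.16. The mean of both averages, 6.3, lay at percentile 41.6 of all probe sets, the lowest of the 9 genes. The difference of 0.48 (log2, standard error 0.194, 95% interval 0.06 to 0.90) corresponds to 39.5% more signal and had the lowest p of the group, with an unadjusted p of 0.0297 and an adjusted p of 0.351 in limma. The unadjusted p was 0.0592 with unequal variances and 0.0540 with the deposited SDs taken as population SDs, both above the threshold of 0.05.

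The probe set of *Pink1* is also named for *Mir7019*, a microRNA gene of 69 bases inside *Pink1* and on the same strand, at chr4:138316132-138316200, and the table does not say which of its probes lie there. The probe set spans the whole of *Pink1*, and no value given here is a measurement of the mature microRNA. The mature forms of *Mir7019* from RefSeq (GRCm38.p6) are shown only because the probe set carries both names. The seed, bases 2 to 8, is in capitals.
mmu-miR-7019-5p: aUCUGGGAggggcugucaggagu
mmu-miR-7019-3p: uCACCUUGgccgccucucugcag
The window before the start of *Pink1*, on the minus strand at chr4:138326297-138326546, is shown because *Pink1* had the lowest p of the group. It held none of the 5 motifs and so has no capitals.
*Pink1*: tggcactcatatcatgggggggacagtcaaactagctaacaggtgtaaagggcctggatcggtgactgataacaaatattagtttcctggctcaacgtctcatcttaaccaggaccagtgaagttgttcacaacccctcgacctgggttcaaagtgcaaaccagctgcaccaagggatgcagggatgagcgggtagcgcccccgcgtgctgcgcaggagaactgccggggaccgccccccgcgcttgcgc

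**Figure D2:**
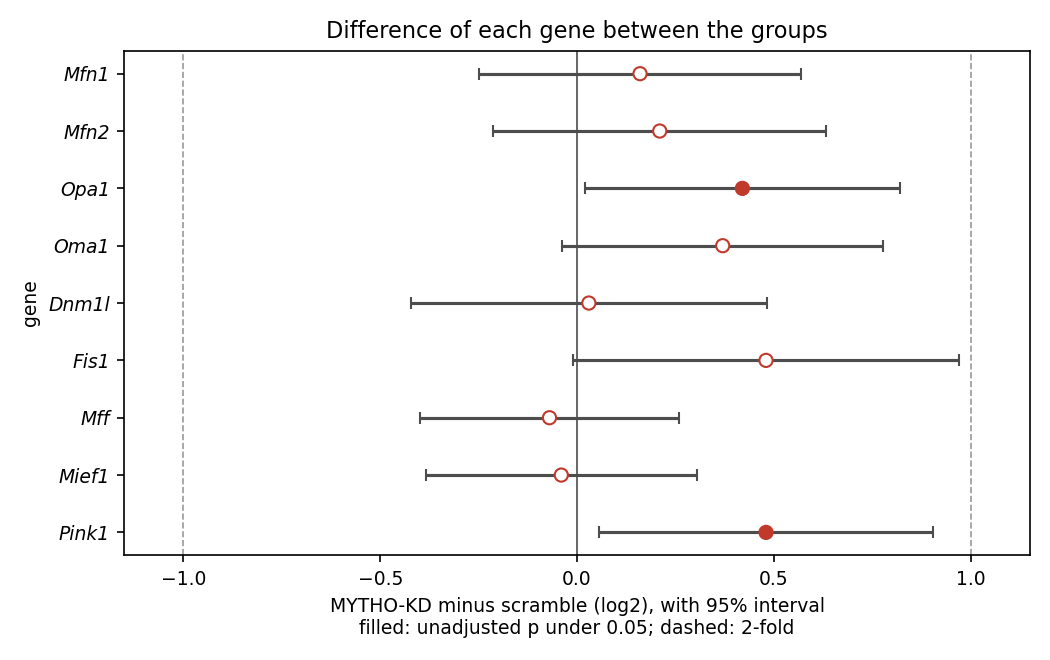
Difference between MYTHO-KD and scramble (log2) for each of the 9 genes, with the 95% interval from limma's moderated variance; filled circles have an unadjusted p under 0.05 and dashed lines mark 2-fold. The intervals of *Opa1* and *Pink1* lie above 0, those of the 7 others include it, and all 9 lie inside the dashed lines.

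To place these genes within their pathway, 81 other genes in 6 lists were read from the same fit. Of these, 18 passed the unadjusted threshold, 9 higher and 9 lower, which is 22.2% against 12% of all probe sets, and none was called at 2-fold or passed an adjusted p of 0.05. The median of the 81 differences was 0.07 (log2). The list of other fusion and inner membrane genes had 10 of 20 averages higher, a median of 0.01, and 1 gene higher and 2 lower past the unadjusted threshold. *Mtx2*, a subunit of the outer membrane import and assembly machinery, was lower by its averages of 10.31 and 9.69, a difference of -0.62 (adjusted p = 0.154, limma). *Phb2*, a scaffold of the inner membrane that stabilizes OPA1 processing, differed by 0.47 (adjusted p = 0.268) and *Apoo*, of the cristae-organizing MICOS complex, by -0.42 (adjusted p = 0.314). The probe set of *Apoo* also names a pseudogene of it.

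Other fission and transport genes had 12 of 16 averages higher and a median of 0.195, close to that of the 9 genes. *Spire1*, an actin nucleator with an isoform that acts in fission, came closest to 2-fold of the 81 genes, with 9.52 in scramble (SD 0.33) and 10.48 in MYTHO-KD (SD 0.27), a difference of 0.96 (adjusted p = 0.0888, limma). *Inf2*, a formin that acts at the same step, was higher by 0.47 (adjusted p = 0.383). *Gdap1*, a fission factor of the outer membrane mutated in an inherited neuropathy, was lower by its averages of 8.50 and 7.66, a difference of -0.84, with SDs of 0.46 and 0.79 (adjusted p = 0.375, limma). The other 13 genes of the list did not pass the unadjusted threshold.

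The genes of the PINK1 pathway and of ubiquitin-dependent mitophagy did not move in 1 direction, with 8 of 18 averages higher and a median of -0.065. *Tomm7*, a subunit of the outer membrane translocase that holds PINK1 at the surface, was higher by 0.66, from 8.92 to 9.58 (adjusted p = 0.199, limma). *Tomm70a*, a receptor of the same translocase, was higher by 0.40. *Park7*, which encodes the redox-sensitive protein DJ-1, differed by -0.76, from 13.71 in scramble to 12.95 in MYTHO-KD (adjusted p = 0.179, limma). *Fbxo7*, a ubiquitin ligase adaptor that acts in mitophagy, differed by -0.42, and *Tax1bp1*, an autophagy receptor, by -0.37. *Tomm70a* and *Tax1bp1* are named because they complete the 5 past the unadjusted threshold, after their values were seen. The autophagy receptors *Sqstm1* (-0.08) and *Optn* (0.02), also named after their values were seen, lay near 0.

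All 7 genes of the receptor-mediated mitophagy list had higher averages, with a median of 0.26 and a range of 0.01 to 0.38. None of them passed the unadjusted threshold. The largest differences by the test were those of *Fundc1* (0.38, adjusted p = 0.499, limma), *Bnip3* (0.36, adjusted p = 0.559) and *Gbas* (0.26, adjusted p = 0.566), the last being the array's name for *Nipsnap2*. Of the 10 proteases and chaperones of the matrix and intermembrane space, 4 passed the unadjusted threshold and went both ways. The chaperone *Hspd1* (HSP60) was higher by 0.83, from 12.85 to 13.68, and the protease *Htra2* by 0.47. The chaperone *Trap1* differed by -0.57 and the protease subunit *Clpp* by -0.44, with the lowest adjusted p of the 4, that of *Hspd1*, at 0.154 (limma).

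The 10 genes used as a gauge of mitochondrial content had 8 averages higher and a median of 0.105. Whether the 9 fusion, fission and quality control genes differed more than these was not tested. Past the unadjusted threshold, *Cox4i1* (0.44) and *Sdhb* (0.49), of respiratory complexes IV and II, were higher, and the outer membrane channel *Vdac2* (-0.45) was lower, none with an adjusted p under 0.26 (limma). *Cs*, citrate synthase, differed by 0.13 and *Tfam*, which maintains mitochondrial DNA, by 0.08, and both are named after their values were seen.

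**Figure D3:**
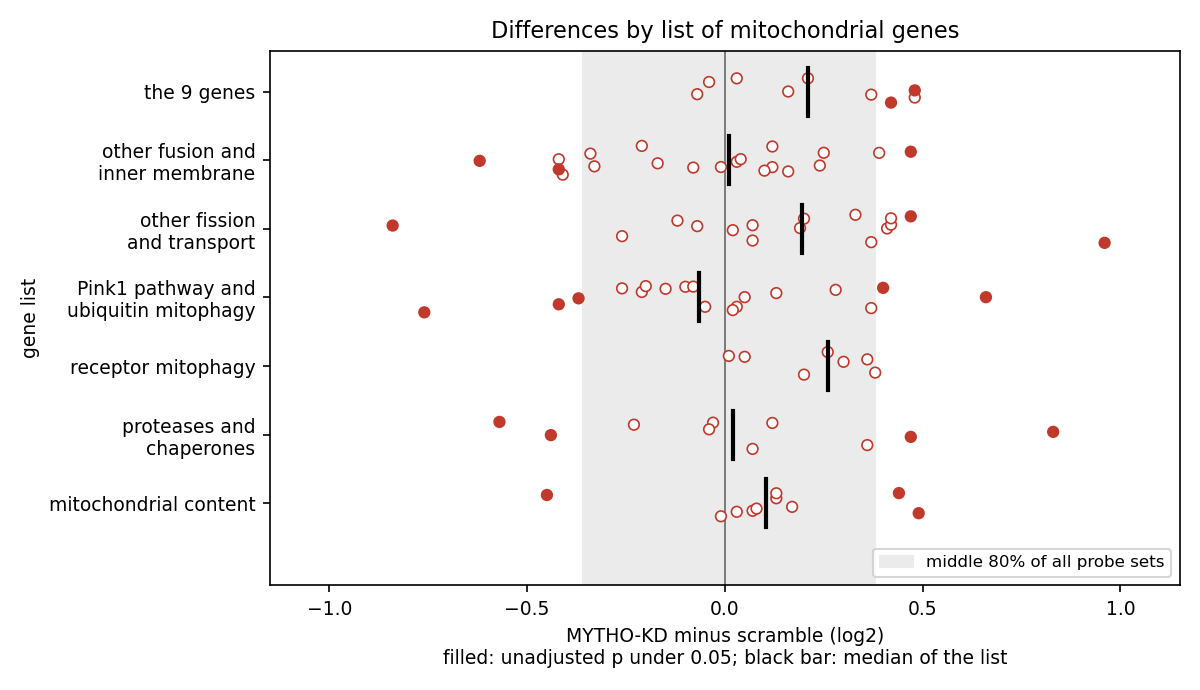
Differences between MYTHO-KD and scramble (log2), each circle 1 gene, for the 9 genes and the 6 lists of other mitochondrial genes; circles are filled at an unadjusted p under 0.05, black bars are list medians, and the grey band runs from the 10th to the 90th percentile of all probe sets, -0.36 to 0.38. Filled circles stand on both sides of 0 in 5 of the 6 lists, and the receptor list has none.

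Markers of some other cell types, but not of all, differed between the groups. Over all probe sets, 12% passed the unadjusted threshold. All 9 macrophage markers had higher averages in MYTHO-KD, with a median difference of 0.66 (log2), and 5 of them passed the unadjusted threshold, led by *Cd68* (2.53, adjusted p = 0.0182, limma). All 7 fibroblast markers had higher averages, with a median of 0.82, and 3 passed, led by *Bgn* (1.94, adjusted p = 0.0290, limma). All 6 endothelial markers had higher averages, with a median of 0.45, and 2 passed, led by *Kdr* (0.75, adjusted p = 0.190, limma). The averages of all 7 lymphocyte markers were lower, with a median of -0.17, and none passed. Of the 5 adipocyte markers 4 had lower averages, with a median of -0.28, and none passed; *Lep* (-0.33) had the largest moderated t and *Adipoq* (-0.69), named after its value was seen, the largest difference. The summed signals were 2.37 times those of scramble for macrophage, 1.30 for fibroblast, 1.41 for endothelial, 0.857 for lymphocyte and 1.02 for adipocyte markers, and such a sum follows the brightest probe sets, *Dcn* (0.28) for fibroblasts and *Fabp4* (0.04) for adipocytes. The 8 markers of muscle fibers differed by -0.23 to 0.05, *Actn3* most, with 0.962 times in sum and signals near the top of the scale. No marker was at 0 on this log2 scale, and 1 lymphocyte marker was not marked as expressed in at least 1 of the groups. The part of these cells in the values of the mitochondrial genes was not tested.

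Markers of slow and oxidative fibers varied greatly among the arrays of a group. Their median SD was 2.11 in MYTHO-KD and 1.00 in scramble, up to 3.67 for *Tnni1*, and their median difference was -0.165. Only *Myh2*, of fast oxidative fibers, passed the unadjusted threshold (0.41, adjusted p = 0.315, limma). Its average in MYTHO-KD, 19.91 with an SD of 0.01, lay near the top of the scale, and its p is to be read with caution. The direction is opposite to that in the study, which reported lower *Myh2* mRNA at 12 weeks by RT-qPCR in another muscle, the tibialis anterior. The 9 fusion, fission and quality control genes had SDs of 0.13 to 0.43 in MYTHO-KD and 0.08 to 0.34 in scramble, with the larger SD in MYTHO-KD for 3 of them. Whether the arrays with more slow fiber signal were those with higher *Opa1* or *Pink1* was not tested, since this needs single arrays.

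**Figure D4:**
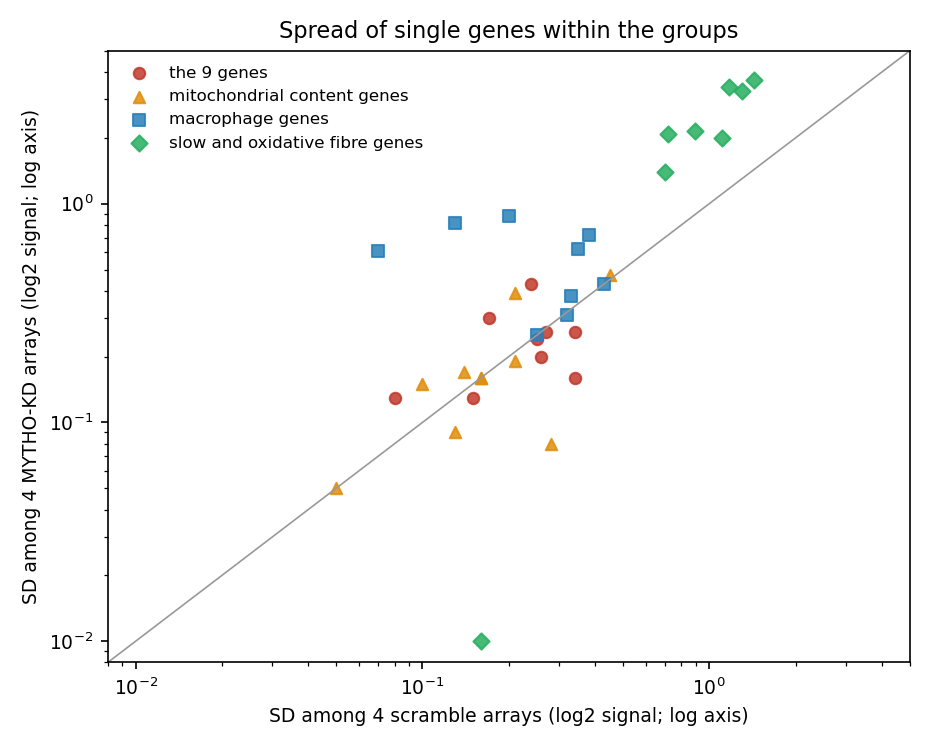
SD of the log2 signal among the 4 scramble arrays (horizontal, log axis) and among the 4 MYTHO-KD arrays (vertical, log axis), for the 9 genes (circles), content genes (triangles), macrophage markers (squares) and slow and oxidative fiber markers (diamonds), with the line of equal SDs. The 9 genes and the content genes lie below 0.5 on both sides of the line, 3 macrophage markers lie well above it, while 7 of the 8 slow and oxidative fiber genes lie above it, with SDs of 1.39 to 3.67 in MYTHO-KD, and the remaining 1, near the bottom, is *Myh2*.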

How the data were processed

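GAS muscle RNA was measured on 8 Clariom S Mouse arrays, 4 per group, with groups taken from the sample labels. For normalization the authors ran SST-RMA with the defaults of the Transcriptome Analysis Console (RMA and Affymetrix Expression Console are also in the submitters' processing notes), and they deposited log2 averages and SDs per group, with positions on mm10. The kind of average and of SD is not given in the sources used here. The deposited fold changes, p-values and false discovery rates of the authors' comparison were not used. The table has 28 columns and 0 of single arrays.

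Differences were tested in R 4.3.3 (limma 3.58.1), starting from averages and SDs. The mean of both group variances, with 6 degrees of freedom, was shrunk by squeezeVar towards a prior SD of 0.284 that counted for 5.85 degrees of freedom. Two-sided p-values were adjusted by Benjamini-Hochberg over 22206 probe sets. Calls needed 2-fold and an unadjusted p under 0.05, after the methods of the study. If the averages are not plain means, the p-values may be too low. The procedure was tested on simulated data with independent arrays, plain means and sample SDs. That test cannot address another kind of average or SD, or arrays paired by mouse. Where a gene had 2 probe sets, as 2 of the pathway genes did, the 1 with the higher mean was used. Named are 9 of the 10 genes, since 1 gene is not reported here, the sh-RNA target, the 3 genes of each pathway list with the largest moderated t and the first of each marker list; *Acta1*, *Myh4*, *Tnni1*, *Dcn*, *Fabp4* and *Htra2* were named after their values were seen. The 10 genes and the lists were chosen with earlier results of these data known. Alternatives were unmoderated variances, robust fitting with a trend on signal, unequal variances, dropping dim probe sets (below 5.715, which 30% of means are), 1 probe set per symbol, centring on the median, other thresholds and, chosen after seeing the data, population SDs. The number of arrays limits the precision, and p-values measure only the spread between these samples.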

Additional observations from a re-analysis of the deposited data

How the results depend on the processing

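Over 7 alternatives for each of the 9 genes, 60 of 63 values kept their direction and their side of the unadjusted threshold, 3 lost it and none changed sign. *Pink1* (difference 0.48) lost it with unequal variances, at an unadjusted p of 0.0592, and with the deposited SDs taken as population SDs, at 0.0540, an alternative chosen after seeing the data. Its unadjusted p ranged from 0.0271 to 0.0592 over the alternatives, and its adjusted p from 0.289 to 0.637 (limma for all but the unequal and the unmoderated variances). *Opa1* (difference 0.42) lost it with population SDs, at an unadjusted p of 0.0706, in a range of 0.0235 to 0.0706, with adjusted p of 0.311 to 0.674. The count of genes past the threshold was therefore 1 with unequal variances and 0 with population SDs, in place of 2. The lowest adjusted p of any of the 9 genes under any alternative was 0.289. The count over the 81 pathway genes (18) lay between 12 and 21. Over all probe sets 248 were called at 2-fold. The other thresholds gave 1287 at 1.5-fold, 2664 at any fold with an unadjusted p under 0.05, and 61 with an adjusted p under 0.05, since these limits are wider or stricter. No paired analysis was possible because the table analysed holds group averages and no columns of single arrays, which also kept leave-one-out fits from being run. A second choice of probe set was not run, since each of the 9 genes has 1. Population SDs raise every standard error by construction. With unequal variances the standard error of *Pink1* was 0.188, as it was without moderation, and 0.194 in the main fit. Its unadjusted p without moderation was 0.0432 (t-test with pooled variance). The higher p with unequal variances thus came with fewer degrees of freedom, not with a larger standard error.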

Other observations

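Protein-coding genes that RefSeq places within 2000 bases of the 9 genes were also read, a choice made after the data were seen, and none of the 4 had an adjusted p under 0.05 (limma). *Atf4*, a transcription factor of the integrated stress response, lies 1811 bases after *Mief1* and differed by -0.24 (adjusted p = 0.676, limma), against -0.04. *Ddost*, 789 bases from *Pink1*, differed by 0.13 (adjusted p = 0.820, limma), and *Cldn15*, 1634 bases from *Fis1*, by -0.32 (adjusted p = 0.616, limma), against 0.48 for either member. *Gnb4* overlaps the end of *Mfn1* by 639 bases and differed by -0.10 (adjusted p = 0.942, limma). The differences within a pair were not tested.

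The chaperone *Hspd1* and its partner *Hspe1* (HSP10), a pair known for a shared promoter region, had unlike differences. *Hspd1* differed by 0.83 (adjusted p = 0.154, limma), and *Hspe1*, with averages of 9.88 in scramble and 9.95 in MYTHO-KD, by 0.07 (adjusted p = 0.918, limma). The difference between them was not tested, and both were set beside each other after their values were seen.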
